A study of Homo sapiens with 5 samples.

Results

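The Wnt ligands, receptors and regulators were examined as targets of steroidogenic factor-1 (SF-1, encoded by NR5A1), a nuclear receptor that drives adrenal and gonadal development and steroid hormone synthesis. The group held 57 genes named by symbol, of 20163 protein-coding genes in the annotation, and every symbol matched 1 gene. They were listed by their place in the pathway, with earlier results of these data known. A gene was scored by the SF-1 peaks whose centre lay within 1, 10 or 100 kb of its outermost annotated start, here called its start. Peaks given for a gene are those within 100 kb of that start unless another distance is named.

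Wnt proteins are secreted ligands that bind Frizzled receptors together with the co-receptors LRP5 and LRP6. The signal passes through Dishevelled proteins and stops a destruction complex built on Axin and APC, in which GSK3 marks β-catenin for degradation. Stabilized β-catenin then enters the nucleus and binds TCF/LEF factors. In the adrenal cortex the pathway is active in the outer zone, where WNT4 is expressed and RSPO3 comes from the capsule, and its activation by mutation is frequent in adrenocortical tumors. H295R is an established human adrenocortical carcinoma cell line and is known to carry an activating mutation of CTNNB1, the β-catenin gene.

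The cells were H295R/TR SF-1, a subclone of H295R that makes additional SF-1 under doxycycline. Chromatin was prepared without doxycycline (basal SF-1) or after 3 days of doxycycline (overexpressed SF-1), and was precipitated with a Millipore or a Perseus anti-SF-1 antibody. Each of the 4 combinations gave 1 peak list called on 3 pooled libraries against input DNA, so there was no replicate error and no test between lists was possible. The lists held 4393 (basal Millipore), 11910 (overexpressed Millipore), 6616 (basal Perseus) and 7453 (overexpressed Perseus) peaks, each with a rank from 1 (best) within its list. Read depth behind the lists is unknown, and a deeper library yields more peaks. RNA levels were not analysed here, so the lists do not tell which of the 57 genes the cells express.

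The sites that carry the SF-1 consensus near these genes are shown first, because they connect the binding data to the sequence that SF-1 is known to recognize. The consensus was the pattern NCAAGGNCN with C or T in the N at positions 1 and 7 and A or G in the N at position 9, searched on both strands. All sites are shown that held it and that lay within 10 kb of a start or were found in 2 or more lists. Each is printed 5′ to 3′ on the plus strand of hg19, with the consensus, or its reverse complement where it lies on the minus strand, in capitals. From sites wider than 300 bp a stretch of 300 bases is given.
AXIN2 intron site, chr17:63528351-63528599: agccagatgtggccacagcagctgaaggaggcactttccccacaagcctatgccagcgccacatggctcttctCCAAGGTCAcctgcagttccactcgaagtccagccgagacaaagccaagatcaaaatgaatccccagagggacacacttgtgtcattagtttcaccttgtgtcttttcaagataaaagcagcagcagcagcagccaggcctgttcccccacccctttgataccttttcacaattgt
AXIN2 upstream site, chr17:63581025-63581324: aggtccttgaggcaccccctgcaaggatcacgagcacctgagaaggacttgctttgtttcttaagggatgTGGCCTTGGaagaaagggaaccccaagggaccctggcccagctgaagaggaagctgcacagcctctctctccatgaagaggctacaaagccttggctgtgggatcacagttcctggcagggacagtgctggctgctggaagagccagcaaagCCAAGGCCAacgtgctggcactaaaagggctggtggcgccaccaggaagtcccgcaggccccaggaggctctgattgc
RSPO1 site, chr1:38069001-38069149: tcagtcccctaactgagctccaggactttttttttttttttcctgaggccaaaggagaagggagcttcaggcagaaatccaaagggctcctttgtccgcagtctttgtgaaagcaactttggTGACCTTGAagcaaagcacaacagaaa
WNT7A upstream site, chr3:13974651-13974799: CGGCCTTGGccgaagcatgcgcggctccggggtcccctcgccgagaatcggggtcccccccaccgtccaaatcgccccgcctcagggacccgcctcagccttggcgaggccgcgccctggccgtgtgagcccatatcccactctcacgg
RNF43 site, chr17:56415301-56415600: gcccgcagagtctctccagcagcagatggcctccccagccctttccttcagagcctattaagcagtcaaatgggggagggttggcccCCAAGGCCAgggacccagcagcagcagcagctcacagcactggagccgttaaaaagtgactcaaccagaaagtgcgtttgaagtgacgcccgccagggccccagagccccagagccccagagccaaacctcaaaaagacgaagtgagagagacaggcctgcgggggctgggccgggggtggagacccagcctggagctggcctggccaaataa
APC upstream site, chr5:111943801-111944049: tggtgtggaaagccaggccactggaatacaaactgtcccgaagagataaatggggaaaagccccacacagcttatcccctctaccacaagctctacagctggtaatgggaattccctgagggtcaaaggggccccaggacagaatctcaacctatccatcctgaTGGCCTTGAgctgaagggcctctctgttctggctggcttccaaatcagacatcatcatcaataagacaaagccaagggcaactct
WNT4 intron site, chr1:22465801-22465949: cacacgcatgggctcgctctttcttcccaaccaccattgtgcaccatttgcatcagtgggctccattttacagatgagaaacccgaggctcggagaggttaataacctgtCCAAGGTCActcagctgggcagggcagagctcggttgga

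The intronic AXIN2 site and the WNT4 site both carried CCAAGGTCA on the plus strand, and the RSPO1 site carried TCAAGGTCA on the minus strand. The upstream AXIN2 site held 2 copies of CCAAGGCCA, one on each strand. The RSPO1 and RNF43 sites lay closer to the starts of other genes, named below. A match describes the letters only and is not a proof of binding at these bases.

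Peaks at the starts themselves were few. Within 1 kb, 0 of the 57 genes had a basal Millipore peak and 1 had an overexpressed Millipore peak, against 1.02% and 8.19% of all protein-coding genes. In the Perseus lists the numbers were 2 at basal and 4 at overexpressed dosage, against 9.56% and 10.5% of all genes. As shares of the 57 genes these were 0% and 1.75% for Millipore and 3.51% and 7.02% for Perseus, below the background in each list. Altogether 6 genes had a peak within 1 kb in at least 1 list and 51 had none, whereas 80.2% of all protein-coding genes had none.

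Within 10 kb the numbers were 1 gene at basal and 8 at overexpressed dosage with Millipore, against 4.38% and 19% of all genes, and 6 and 7 genes with Perseus, against 15.5% and 17.1%. The members' shares were 1.75%, 14.0%, 10.5% and 12.3% in the same order. Within 100 kb, 13 genes had a basal and 26 an overexpressed Millipore peak, or 22.8% and 45.6%, against 30.7% and 61.5% of all genes. With Perseus 25 and 28 genes did, or 43.9% and 49.1%, against 47.2% and 51.2%. At the share of all genes, 0.580 members would have had a basal Millipore peak within 1 kb, against 0 found. For Perseus at 100 kb the numbers were 26.9 and 29.2, against 25 and 28, and for overexpressed Millipore 35.1 against 26. The windows are nested and neighbouring members share peaks, so the comparisons are not independent, and no gap was tested. The members' share lay below that of all protein-coding genes in every list and at every distance, and the gap was widest for overexpressed Millipore at 100 kb. That order depended on list length. With every list limited to its 4393 best-ranked peaks, the members' share for overexpressed Millipore was 36.8% (21 genes) against 35.6% of all genes at 100 kb and 8.77% against 8.22% at 10 kb, and for overexpressed Perseus 12.3% against 11.9% at 10 kb. In the other 9 combinations of list and distance it remained below, with 22.8% against 30.7% for basal Millipore, 26.3% against 37.2% for basal Perseus and 29.8% against 38.5% for overexpressed Perseus at 100 kb.

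The starts of the 57 genes were richer in GC and had fewer neighbours than those of all genes. Median GC content over 500 bases on each side of the start was 65.4% for the 57 genes and 59.2% for all genes, and the median number of other protein-coding starts within 100 kb was 1 against 3. When the background was weighted to the members' promoter GC, in 10 classes of equal size, it rose to 32.4% and 65.9% for basal and overexpressed Millipore and to 50.3% and 54.7% for Perseus at 100 kb. When it was weighted to the number of neighbouring starts instead, it fell to 27.3% and 54.1% for Millipore and to 40.2% and 43.4% for Perseus. The members' share therefore lay below both weighted values with the Millipore antibody and between them with the Perseus antibody. Within 1 kb and 10 kb it lay below both in all 4 lists.

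**Figure D1:**
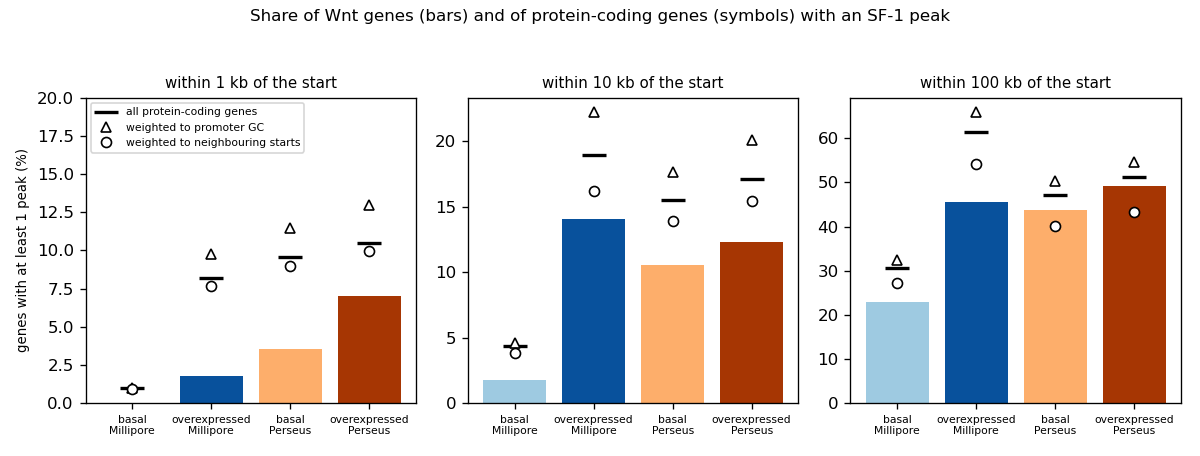
Share of genes with at least 1 SF-1 peak within 1, 10 and 100 kb of the start (percent, vertical axis) in each peak list (horizontal axis), with a separate vertical scale in each panel. Bars stand for the 57 Wnt genes, dashes for all 20163 protein-coding genes, triangles for the same weighted to promoter GC and circles for the same weighted to neighbouring starts. With the full lists every bar ends below the dash of its list, and only the Perseus bars at 100 kb (43.9% and 49.1%) pass the circles.

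Counted by peaks, 13 of 4393 basal Millipore peaks lay within 100 kb of a Wnt gene, or 0.296% (exact binomial 95% interval 0.158 to 0.506%), and 59 of 11910 at overexpressed dosage, or 0.495% (0.377 to 0.639%). For the Perseus antibody the numbers were 41 of 6616, or 0.620% (0.445 to 0.840%), and 36 of 7453, or 0.483% (0.339 to 0.668%). The number of peaks near Wnt genes was thus higher at overexpressed dosage with Millipore and lower with Perseus, while the intervals of the shares overlapped for both antibodies. The intervals cover counting error over peaks only. The mean number of peaks within 100 kb was 0.246 and 1.21 per member for basal and overexpressed Millipore, and 0.719 and 0.667 for Perseus. Over all protein-coding genes it was 0.421 and 1.71 for Millipore and 0.946 and 1.12 for Perseus.

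Many genes had a peak at one dosage and not at the other. With Millipore, 7 genes had a peak within 100 kb at both dosages (WNT1, WNT10B, AXIN1, AXIN2, APC, SFRP1 and RSPO4), 6 at basal dosage alone and 19 at overexpressed dosage alone. With Perseus 13 genes had one at both dosages, 12 at basal dosage alone and 15 at overexpressed dosage alone. Over all protein-coding genes the corresponding shares were 23.3%, 7.32% and 38.2% for Millipore and 35.8%, 11.4% and 15.4% for Perseus. For the 57 genes they were 12.3%, 10.5% and 33.3% for Millipore and 22.8%, 21.1% and 26.3% for Perseus. From the outermost start, only AXIN2 and APC had a peak within 100 kb in all 4 lists, or 3.51% of the members against 15.1% of all genes, and 8 members had none in any list, or 14.0% against 20.1%. When any annotated transcript start was used, 4 members (APC, LRP5, AXIN1 and AXIN2) had a peak in all lists. The share of all genes was not computed with any transcript start, so 15.1% is not the background of this count. The use of any transcript start added LRP5 and SFRP4 to the basal Millipore list and LEF1 and WNT5B to the overexpressed Millipore list. It added AXIN1, TCF7 and TCF7L1 to the overexpressed Perseus list.

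**Figure D2:**
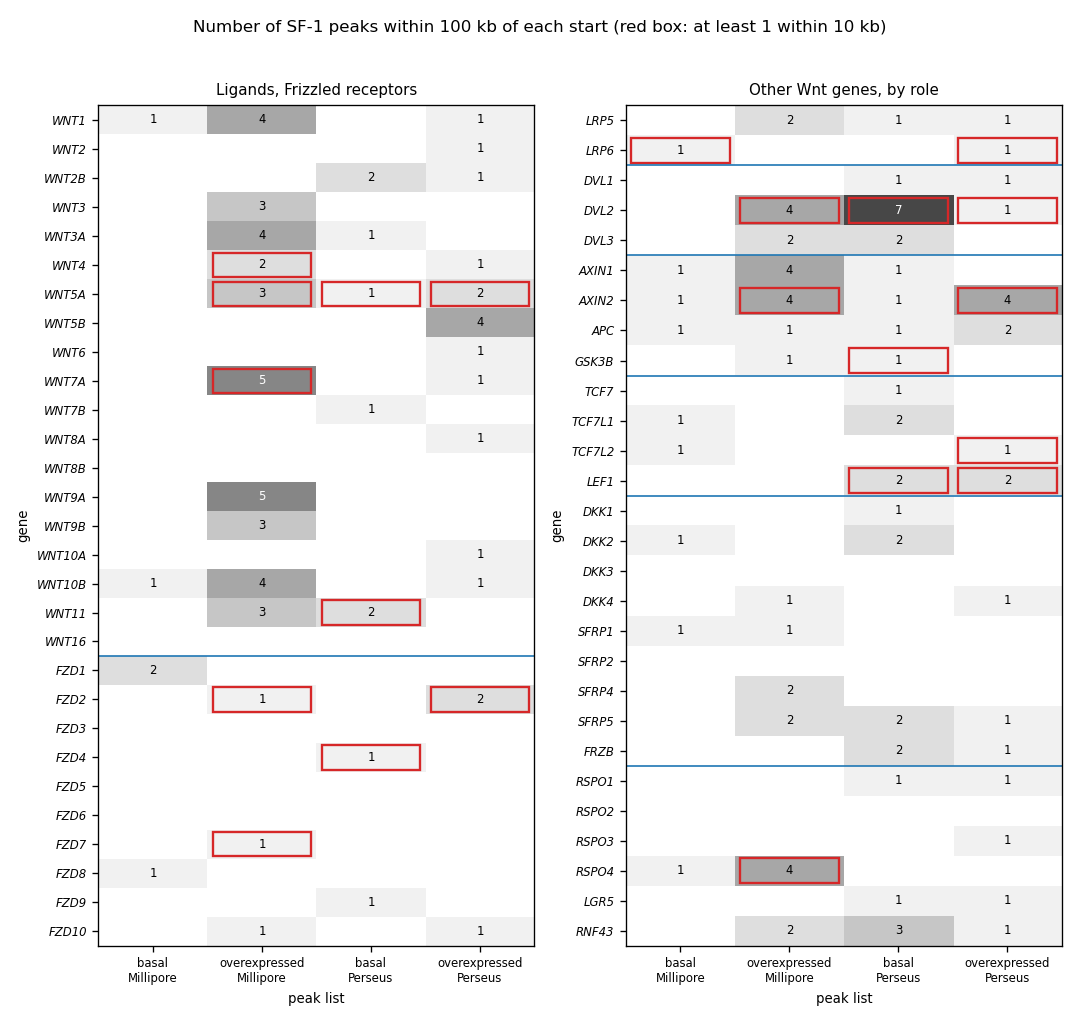
Number of SF-1 peaks with centre within 100 kb of the start of each of the 57 Wnt genes (rows, grouped by role between blue lines) in the 4 peak lists (columns). Empty cells are 0 and red boxes mark genes with at least 1 peak within 10 kb. The fullest rows are DVL2, with 0, 4, 7 and 1 peaks from left to right, and AXIN2, with 1, 4, 1 and 4.

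When overlapping peaks of the 4 lists were joined, 127 distinct sites lay near the 57 genes. Of these, 108 were found in 1 list, 16 in 2 lists, 3 in 3 lists and 0 in all 4. The share found in 2 or more lists was 15.0% (19 sites), beside 13.8% of the 25693 sites of the whole series. With Millipore 1 of 71 sites was found at both dosages, or 1.41%, beside 3.45% of all sites. With Perseus 9 of 68 were, or 13.2%, beside 16.2%. The nearest protein-coding start belonged to one of the 57 genes at 72 sites, or 56.7%, and to another gene at the remainder. In total 36 sites were intergenic and 22 fell in an exon of a protein-coding gene.

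All 4 members of the destruction complex had an overexpressed Millipore and a basal Perseus peak within 100 kb, 3 had a basal Millipore peak and 2 an overexpressed Perseus peak. Over all protein-coding genes the shares were 61.5%, 47.2%, 30.7% and 51.2% in the same order, and 4 genes are too few to tell a difference from these. AXIN2, which encodes a scaffold of the complex and is itself a classical target of β-catenin, had 1 basal and 4 overexpressed peaks with each antibody. Its intronic site at chr17:63528351-63528599, 29291 bp downstream of the start, ranked 66 of 4393 in the basal Millipore list, the best rank of any peak near the 57 genes. The same place ranked 1031 in the basal and 570 in the overexpressed Perseus list, and it holds the consensus printed above. The overexpressed Millipore list had no peak on it but had peaks on either side, at 28441 bp (rank 8825) and at 30166 bp (rank 4578) from the start. The peak of rank 4578 overlapped an overexpressed Perseus peak of rank 6901, without the consensus. AXIN2 therefore had an intronic peak in every list, and in 3 of them an intronic peak that contained the consensus. In the overexpressed Millipore list the consensus lay in an upstream peak, described next.

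Another AXIN2 site, 23459 bp upstream of the start and in an intron of an unnamed protein-coding gene model, was found in both overexpressed lists and in neither basal one. It ranked 467 in the overexpressed Millipore and 2153 in the overexpressed Perseus list and holds the paired consensus shown above. At the promoter itself, 209 bp upstream of the start, lay 1 overexpressed Perseus peak with rank 849 and no consensus. A further overexpressed Millipore peak, rank 3698, lay 5591 bp into the gene.

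**Figure D3:**
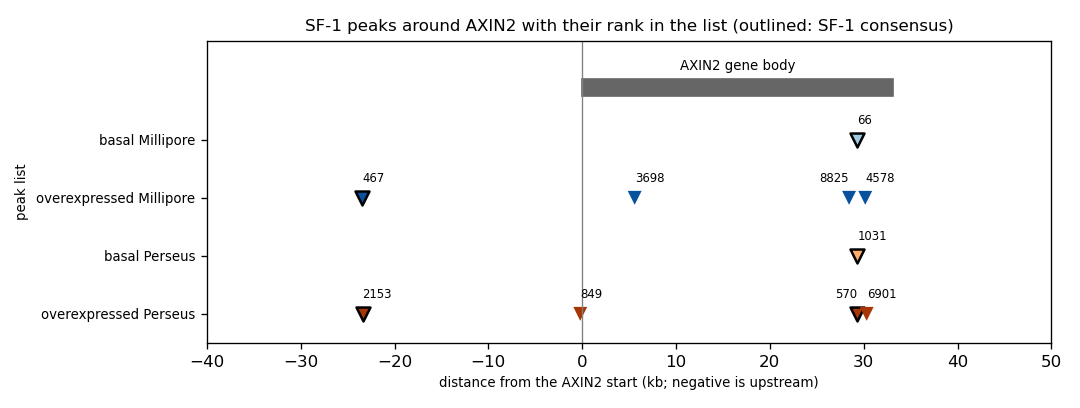
SF-1 peaks around AXIN2 by distance from its start (kb, horizontal axis) in the 4 lists (vertical axis). Triangles mark peak centres, numbers are ranks within the list and outlined triangles hold the SF-1 consensus. The upstream pair with ranks 467 and 2153 appears in the overexpressed lists alone, and the intronic peak with the consensus in 3 lists.

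APC, the tumor suppressor that holds β-catenin in the complex, had 1 peak within 100 kb in each list except 2 in the overexpressed Perseus list. A site at chr5:112073451-112073799 was found in both overexpressed lists, with ranks 1723 and 1823, and in neither basal list. It lay 30410 bp downstream of the outermost start, in an intron by that reckoning, but 33 bp from the start of another annotated APC transcript. Another site, 99290 bp upstream, was found with Perseus at both dosages, with ranks 2828 and 7314, and its consensus is printed above. AXIN1, the constitutive scaffold, had 1, 4, 1 and 0 peaks in the basal Millipore, overexpressed Millipore, basal Perseus and overexpressed Perseus lists. One of its sites, 45827 bp upstream in an exon of NME4, was the single site near the 57 genes that both Millipore lists shared, with ranks 3784 and 845. GSK3B, the kinase of the complex, had 1 overexpressed Millipore peak 37759 bp upstream and 1 basal Perseus peak 1841 bp into the gene.

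Among the 19 ligands, 0 had a peak within 1 kb in any list, 4 had one within 10 kb (WNT4, WNT5A, WNT7A and WNT11) and 17 had one within 100 kb. Over all lists together, 80.2% of all protein-coding genes had no peak within 1 kb, 64.8% none within 10 kb and 20.1% none within 100 kb. For the 57 members these shares were 89.5%, 75.4% and 14.0%. WNT8B and WNT16 had no peak within 100 kb. Basal Millipore peaks lay near 2 ligands and overexpressed Millipore peaks near 10. The Perseus lists reached 5 ligands at basal and 11 at overexpressed dosage. The shares of all protein-coding genes with a peak within 100 kb were 30.7%, 61.5%, 47.2% and 51.2% in the same order. Ligand genes lie in pairs, with WNT3 and WNT9B starting 47 bp apart in this annotation, WNT1 and WNT10B 6587 bp, WNT6 and WNT10A 21046 bp, and WNT3A and WNT9A 59066 bp, so both partners were often scored by the same peak. Of the 127 sites, 13 were counted for 2 members in this way.

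WNT4, a regulator of adrenal and female gonadal development, had 0 basal peaks with either antibody, 2 overexpressed Millipore peaks and 1 overexpressed Perseus peak. Of these, 2 were intronic and held the SF-1 consensus, at 4587 bp (Millipore, rank 4231) and at 11537 bp (Perseus, rank 1613) from the start. They were different sites, so the antibodies shared the gene and not the position. WNT5A, a ligand of the β-catenin-independent branch, had the only site within 10 kb of a start that 3 lists shared. That site, chr3:55520151-55520649, lay in an intron 4167 bp from the outermost start and 934 bp from another WNT5A transcript start. It ranked 5336 with overexpressed Millipore, 3263 with basal Perseus and 3986 with overexpressed Perseus, was absent from the basal Millipore list, and held no consensus.

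WNT7A, a ligand of epithelial and neural tissues, had 5 overexpressed Millipore peaks and 1 overexpressed Perseus peak within 100 kb, and 0 at basal dosage. The site shown above, 53157 bp upstream, was found with both antibodies at ranks 6969 and 5572, and 1 peak lay 2357 bp upstream of the start at rank 1947. WNT9A also had 5 overexpressed Millipore peaks and no peak in any other list. WNT11 had 3 overexpressed Millipore and 2 basal Perseus peaks, of which one pair overlapped 24430 bp downstream of the start, with ranks 1422 and 4907. WNT5B had 4 peaks, all in the overexpressed Perseus list, the best at rank 1060 and 19357 bp upstream with the consensus. The others had FBXL14 as their nearest start, those at ranks 1183 and 4547 at 203 and 578 bp from it. WNT1 and WNT10B each had 1 basal and 4 overexpressed Millipore peaks and 1 overexpressed Perseus peak, the same ones for both genes, in a neighbourhood of 10 other starts that includes KMT2D and ARF3. WNT3 and WNT9B likewise shared 3 overexpressed Millipore peaks and had no others, and WNT6 and WNT10A shared 1 overexpressed Perseus peak in an exon of CYP27A1. WNT3A had 4 overexpressed Millipore peaks and 1 basal Perseus peak. Its Millipore peaks at ranks 9297, 11744 and 7499 were counted for WNT9A as well. WNT2B had 2 basal and 1 overexpressed Perseus peaks. WNT2 and WNT8A each had 1 overexpressed Perseus peak and WNT7B 1 basal Perseus peak, at distances between 51179 and 92908 bp.

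**Figure D4:**
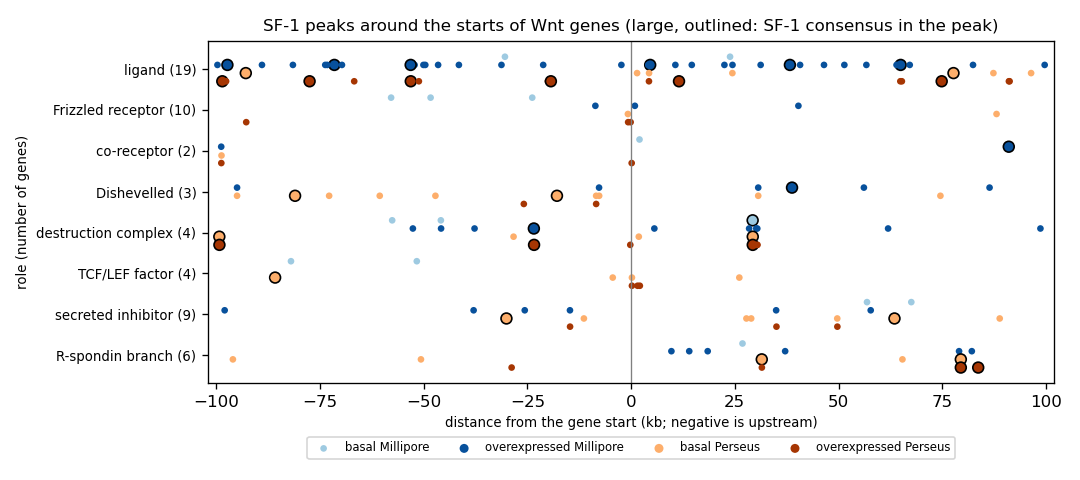
Signed distance of every SF-1 peak within 100 kb of a Wnt gene start (kb, horizontal axis, upstream negative) by role of the gene (vertical axis, with the number of genes) and list (colour and row). Large outlined points hold the SF-1 consensus, and a peak near a pair of members is drawn for each. Most peaks lie far from the starts, and 1 outlined point, in the WNT4 intron at 4587 bp, falls within 10 kb.

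Of the 10 Frizzled receptors, which bind Wnt proteins at the cell surface, 3 had a peak within 1 kb and 7 had one within 100 kb. Over all protein-coding genes 80.2% had no peak in any list within 1 kb and 20.1% had none within 100 kb, and 10 genes are too few to tell a difference from these. FZD2 had 2 overexpressed Perseus peaks at its start, 127 bp (rank 3235) and 727 bp (rank 6118) upstream, 1 overexpressed Millipore peak 8627 bp upstream (rank 2233), and 0 basal peaks. FZD7 had 1 overexpressed Millipore peak in its exon, 897 bp from the start, which ranked 11124 of 11910. FZD4 had 1 basal Perseus peak 788 bp upstream, rank 4120, and no other within 100 kb. None of these peaks held the consensus. FZD1 and FZD8 were reached by basal Millipore peaks alone, 2 and 1, FZD9 by 1 basal Perseus peak, and FZD10 by 1 overexpressed peak with each antibody. The FZD9 peak had rank 6505 and lay 423 bp from the start of BAZ1B. FZD3, FZD5 and FZD6 had no peak in any list.

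Of the co-receptors, LRP6 had 1 basal Millipore peak 1903 bp into the gene (rank 2352) and 1 overexpressed Perseus peak in its first bases, 128 bp from the start (rank 1731). The first was the only basal Millipore peak within 10 kb of any of the 57 starts. LRP5 had 0 basal Millipore peaks, 2 overexpressed Millipore peaks and 1 in each Perseus list. The site found in 3 lists, 98834 bp upstream, lay 94 bp from the start of KMT5B, a neighbouring histone methyltransferase gene. An overexpressed Millipore peak in an LRP5 exon at 91041 bp, rank 2350, held 2 copies of the consensus.

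Of the Dishevelled genes, which relay the signal inside the cell, DVL2 had the most peaks of any member, 0 in the basal Millipore, 4 in the overexpressed Millipore, 7 in the basal Perseus and 1 in the overexpressed Perseus list. They lay in a neighbourhood of 16 other protein-coding starts, and none had DVL2 as its nearest start. The best, 8439 bp upstream, ranked 171 in the basal and 465 in the overexpressed Perseus list and lay 507 bp from the start of GABARAP. DVL1 had 1 peak in each Perseus list and DVL3 had 2 overexpressed Millipore and 2 basal Perseus peaks, likewise closer to other genes.

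Of the TCF/LEF factors, through which β-catenin acts on genes, LEF1 had 2 Perseus peaks at each dosage within 100 kb of its outermost start, and 1 overexpressed Millipore peak farther into the gene body. Its promoter site, 187 bp downstream of the start, was found at both dosages with ranks 4204 and 5638 and was the only site within 1 kb of a member found in 2 lists. An overexpressed peak at 1537 bp ranked 1328 and a basal peak 4438 bp upstream ranked 5328. TCF7L2 had 1 overexpressed Perseus peak 2094 bp into the gene, rank 2356, and 1 basal Millipore peak 51681 bp upstream. TCF7 had 1 basal Perseus peak at 26078 bp, in an exon, and TCF7L1 had 1 basal Millipore and 2 basal Perseus peaks, between 82015 and 86140 bp upstream. From the outermost starts the TCF/LEF genes had 0 overexpressed Millipore peaks within 100 kb, and with any transcript start LEF1 had one. From the outermost starts 61.5% of all protein-coding genes had such a peak, and the TCF/LEF genes are too few to tell a difference.

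Of the 9 secreted inhibitors, 0 had a peak within 10 kb and 7 had one within 100 kb, numbers to be read beside the shares without a peak in any list, 64.8% at 10 kb and 20.1% at 100 kb over all genes. SFRP5, a Frizzled-like decoy, had 0, 2, 2 and 1 peaks in the basal Millipore, overexpressed Millipore, basal Perseus and overexpressed Perseus lists, and the overexpressed lists shared a site whose Millipore peak lay 78 bp from the start of its neighbour ZFYVE27. FRZB, a decoy of the same family, had 2 basal Perseus peaks and 1 overexpressed Perseus peak, with a shared site 49715 bp downstream at ranks 2210 and 6043. DKK2, an antagonist of LRP5 and LRP6, had 1 basal Millipore and 2 basal Perseus peaks in its own introns and 0 at overexpressed dosage. DKK4 had 1 overexpressed peak with each antibody at one site, the Millipore peak 358 bp from the start of VDAC3. DKK1 had a single basal Perseus peak, SFRP1 1 peak in each Millipore list, and SFRP4 2 overexpressed Millipore peaks. DKK3 and SFRP2 had none.

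R-spondins strengthen the Wnt signal through LGR receptors by removing the ubiquitin ligases RNF43 and ZNRF3 from the receptors. RSPO4 had peaks with the Millipore antibody alone, 1 at basal and 4 at overexpressed dosage, all in its own introns, and the best ranked 545 and lay 9704 bp from the start. One of them, at 37129 bp, held the consensus of the neuron-restrictive silencer factor (NRSF/REST), the only such match among the 127 sites. Of all peaks, 1.27% and 1.10% held it in the basal and overexpressed Millipore lists and 0.408% and 0.496% in the Perseus lists. RSPO1 had 1 Perseus peak at each dosage at one site, with ranks 885 and 7091, and the consensus lay within the basal peak alone. The RSPO1 site lay 31489 bp downstream of the RSPO1 start and 7537 bp from that of GNL2, the nearest start. RSPO3 had 1 overexpressed Perseus peak 28816 bp upstream, and RSPO2 none. LGR5 had 1 peak in each Perseus list at different places. RNF43 had 2 overexpressed Millipore, 3 basal Perseus and 1 overexpressed Perseus peaks. Among them were the site printed above, 79481 bp downstream at Perseus ranks 607 and 1969, and an adjacent overexpressed Millipore peak. The latter ranked 427, the best member rank in that list. None of these peaks had RNF43 as its nearest start, and the printed site lay 9319 bp from the start of TSPOAP1.

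Ranks of the members' peaks were spread over the lists. The median rank stood at 48.7% of the list length in the basal and 44.8% in the overexpressed Millipore list, and at 59.9% and 53.5% in the Perseus lists, where 50% is the middle of any list. The best-ranked 10% of a list held 1 of 13, 7 of 59, 3 of 41 and 2 of 36 of them, in the same order.

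**Figure D5:**
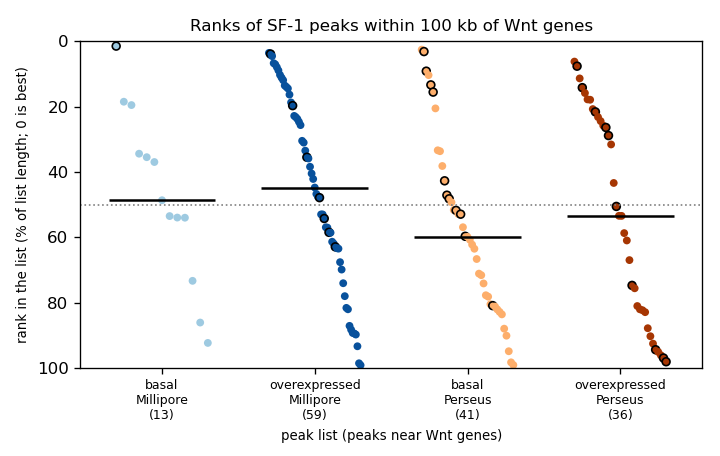
Rank of each SF-1 peak within 100 kb of a Wnt gene as a percentage of its list's length (vertical axis, 0 is best) in the 4 lists (horizontal axis, with the number of peaks). Points are peaks in rank order, outlined where they hold the SF-1 consensus, black lines are medians and the dotted line is the middle of a list. Medians lie between 44.8% and 59.9%, and 1 basal Millipore point, the AXIN2 intron, stands at the top.

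The SF-1 consensus was present in 1 of 13 basal and 7 of 59 overexpressed Millipore peaks within 100 kb of the 57 genes, or 7.69% (0.195 to 36.0%) and 11.9% (4.91 to 22.9%). It was present in 11 of 41 basal and 10 of 36 overexpressed Perseus peaks, or 26.8% (14.2 to 42.9%) and 27.8% (14.2 to 45.2%). Among all peaks within 100 kb of a protein-coding start the shares were 19.3% and 11.7% for Millipore and 22.9% and 17.5% for Perseus, each within the members' interval, and among all peaks of the lists they were 15.96%, 10.9%, 21.6% and 17.2%. Within 10 kb of a member only the WNT4 peak held it, 1 of 8 overexpressed Millipore peaks, against 0 of 1, 0 of 8 and 0 of 9 in the basal Millipore, basal Perseus and overexpressed Perseus lists. Of all peaks within 10 kb of a protein-coding start 11.5% held it with overexpressed Millipore, 23.4% with basal Millipore, 19.6% with basal Perseus and 15.0% with overexpressed Perseus, and the members' numbers are too small to tell a difference from these. Within 500 bases of the start itself, 3 of the 57 genes had the consensus (FZD4, FZD8 and DKK1), or 5.26%, against 9.23% of all protein-coding genes, and of these 3 only FZD4 had a peak within 1 kb.

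A second list of 53 Wnt pathway genes outside the group, such as β-catenin itself, kinases, co-activators and planar polarity genes, was counted in the same way. Within 100 kb, 24 had a basal Millipore peak, 37 an overexpressed Millipore peak, 30 a basal Perseus peak and 33 an overexpressed Perseus peak, or 45.3%, 69.8%, 56.6% and 62.3%. Within 10 kb the numbers were 4, 18, 16 and 19, or 7.55%, 34.0%, 30.2% and 35.8%. At these distances the shares were above those of all protein-coding genes in each list. Within 1 kb they were 3.77%, 7.55%, 9.43% and 11.3%, above all genes for basal Millipore and overexpressed Perseus and below them for overexpressed Millipore and basal Perseus. Median promoter GC was 65.9% against 65.4% for the 57 genes and the median number of neighbouring starts was 1 in both, but median gene length was 56.3 kb against 33.4 kb. Equal medians do not show an equal spread of neighbouring starts. The background was not weighted to promoter GC or neighbouring starts for the 53 genes. The difference between both lists was not tested. CTNNB1 had 1, 3, 3 and 3 peaks within 100 kb in the basal Millipore, overexpressed Millipore, basal Perseus and overexpressed Perseus lists, and 0, 1, 1 and 2 within 10 kb. ZNRF3, a tumor suppressor in adrenocortical carcinoma and the partner of RNF43, had 0, 1, 3 and 0. APC2, a relative of APC, had 2, 9, 6 and 6 within 100 kb and 1, 2, 1 and 1 within 10 kb. It lay in a neighbourhood of 10 other protein-coding starts. In all, 9 of the 53 lacked any peak within 100 kb, among them the Wnt acyltransferase PORCN and the R-spondin receptor LGR4.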

How the data were processed

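SF-1 ChIP-seq peak lists of 4 groups were used, each from 3 pooled libraries, and the input DNA served only in the authors' peak calling. Per the methods, the authors mapped reads to hg19 with ELAND v2 (CASAVA 1.6 in the submitters' processing notes) and called peaks with SeqPeak of CisGenome v2. The deposited lists give positions and a rank, a score whose basis is not stated. The other deposited score is 1000 for every peak and was not used. Positions start on a 50 bp grid.

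Positions were compared with the GRCh37 sequence (hg19) and GENCODE 44 mapped to it. Peaks that overlapped by at least 1 bp formed a site. The NRSF/REST consensus was searched by its 18 fixed positions with at most 4 mismatches. Shares over all genes were also weighted to the members' promoter GC or neighbouring starts. The members and lists were chosen with earlier results of these data known. Genes were named by role, with sites for those bound within 10 kb or in several lists, and the 3 with most peaks. Counting was tested on simulated data. Software was Python 3.11.15, samtools 1.23.1, pysam 0.24.0, pandas 2.3.3, numpy 2.4.6, matplotlib 3.10.9 and scipy 1.17.1.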

Additional observations from a re-analysis of the deposited data

Results flagged for a closer look

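The number of distinct peaks within 100 kb of the 57 Wnt genes moved in opposite directions with dosage in the 2 antibodies, by 46 peaks with Millipore (13 to 59) and by -5 with Perseus (41 to 36). The difference was not tested, since each group is 1 pooled list, and the whole Millipore list lengthened from 4393 to 11910 peaks while the Perseus list went from 6616 to 7453. As shares of the lists, the values moved from 0.296% to 0.495% and from 0.620% to 0.483%, with overlapping intervals.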

How the results depend on the processing

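No paired analysis was possible because each group is 1 pooled list without replicates. Among 99 counts and shares recomputed under alternatives, 79 kept within 1.5 times the original count, or within the interval of the share, and 20 did not. Some of the 79 could not change. No peak near a member lay near a long run of unknown bases, and the basal Millipore list was already the shortest. A count of 0 could not fall when peaks were removed. No count of genes or shared sites changed when peaks near long runs of unknown bases were left out or when the peak edge was used. With the better-ranked 50% of peaks, genes within 100 kb fell to 7 for basal Millipore and to 9 and 14 for Perseus, genes within 10 kb to 0 for basal Millipore and 2 for basal Perseus, genes within 1 kb to 0 for overexpressed Millipore and 0 for basal Perseus, shared sites to 8, the share of basal Perseus peaks near members to 0.423%, and the consensus in basal Perseus member peaks came to 50%. With lists of equal length, overexpressed Millipore reached 0 genes within 1 kb and 5 within 10 kb, the Perseus lists 15 and 17 within 100 kb, and shared sites numbered 9. At equal length the members' share was above that of all genes for overexpressed Millipore at 100 kb (36.8% against 35.6%) and 10 kb and for overexpressed Perseus at 10 kb. With the start of any transcript, basal Millipore reached 2 genes within 10 kb and overexpressed Millipore 3 within 1 kb, WNT5A and APC being added. When each peak went only to its nearest start, overexpressed Millipore reached 15 genes and Perseus 13 and 14 within 100 kb. Removing peaks or giving each peak to 1 gene cannot raise such a count for any set of genes. The shares of all genes were not computed for the better-ranked 50%, any transcript start or the nearest start. These counts therefore have no background beside them. The share of all genes at equal length, the count in all lists by any transcript start, the alternatives for the peak shares and the consensus and the weighting to neighbouring starts were chosen after seeing the data. Read depth is unknown, so the absence of a peak does not show the absence of binding.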
